A study of Mus musculus with 4 samples.

Results

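The genes described here code for the respiratory chain of mitochondria, in microglia of embryonic mouse brain with and without a conditional deletion of Arid1a. Members were the protein-coding genes present in both deposited tables whose symbol begins with Nduf, Sdha to Sdhd, Uqcr, Cox4 to Cox8 or Atp5, together with the mt-Nd, mt-Co, mt-Cytb and mt-Atp genes. This gave 102 of the 16655 genes shared by the tables, 92 encoded in the nucleus and 10 in the mitochondrial genome. By complex, 41 belonged to complex I, 4 to complex II, 9 to complex III, 17 to complex IV and 16 to complex V. The other 15 carry the same name prefixes but were assigned by hand as assembly factors (14 genes) or as sharing only the name (Atp5s). The mitochondrial genes mt-Nd3, mt-Nd4l and mt-Atp8 were not in both tables and were not analysed here.

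The respiratory chain sits in the inner mitochondrial membrane. Complex I takes electrons from NADH and complex II takes them from succinate, ubiquinone carries them to complex III, cytochrome c carries them to complex IV, and complex IV passes them to oxygen. Complexes I, III and IV pump protons as they do so, and complex V, the ATP synthase, makes ATP as the protons flow back. Most subunits are made from nuclear genes and imported, while a small set in the membrane core is transcribed and translated inside the organelle. Complex II is made from nuclear genes alone. Microglia, the macrophages that live in the brain, draw on both glycolysis and this chain, and their balance is known to shift with activation.

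RNA was sequenced from microglia sorted by fluorescence from the forebrain of C57BL/6 mice at embryonic day 14. The labels name the genotypes Arid1acKO, a conditional knockout of Arid1a, and Arid1afl/fl, the floxed control. Values were analysed for knockout replicate 2 (called the knockout library, or the knockout, from here on) and for controls 5 and 6, and knockout replicate 1 was not analysed here. Neither the Cre line nor any pooling of embryos is given in the labels, nor whether libraries came from separate animals. A p-value here rests on the spread between the 2 controls, moderated with that of other genes, and this spread may be technical.

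Arid1a codes for a subunit of the BAF chromatin remodelling complex. It was read at 68.9 CPM (the read count of a gene scaled to the library total times edgeR's TMM factor) in the knockout, 109 in control 5 and 130 in control 6, a fitted log2 fold change of -0.80 ± 0.41 (SE) with an adjusted p of 0.901 in edgeR's quasi-likelihood test. The labels do not say which exons were deleted, so reads over the whole gene check the label only in part. Counted reads were 17262261 in the knockout, 18608979 in control 5 and 13774075 in control 6. All 12 microglia markers were read in every library, and their summed level was 18064 CPM in the knockout, 24382 in control 5 and 33515 in control 6. Of these markers 10 of 12 lay below both controls (83.3%, against 31.1% of all tested genes), with a median log2 fold change of -0.94. Summed CPM in the same library order was 340, 322 and 358 for 6 border macrophage markers and 129, 152 and 185 for 9 neuronal markers. The 5 of 7 neural progenitor markers in the tables summed to 205, 138 and 137 CPM, without Sox2 and Eomes, which are not listed. Without Vim, which stood at 102, 36.5 and 18.4 CPM, the other 4 summed to 103, 101 and 118. Sums were 40.9, 37.8 and 46.5 CPM for erythroid, 26.5, 39.3 and 36.5 for endothelial, 13.1, 11.5 and 14.9 for mural, and 203, 234 and 163 for monocyte and neutrophil markers. Within that last list, Ngp, named because of its values, stood at 63.3, 82.4 and 0.889 CPM, far lower in control 6. Ccr2 went the other way, at 93.0, 120 and 138 CPM, and control 5 was the higher control for 4 of the 7 markers tested. The part of all these cell type markers in the results below was not tested.

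No member passed the test in either direction. Of 101 members tested, 0 had an adjusted p under 0.05, against 6 of 15236 genes over the whole table (0.0394%). The lowest adjusted p of a member was 0.549, for Ndufs3. At an unadjusted p under 0.05 there were 2 members, Ndufs3 and mt-Cytb, both lower in the knockout library, against 6% of all genes in either direction and 3.54% in that direction (2.46% were higher). DESeq2's Wald test also gave 0 members, against 2.12% of genes. With 1 knockout library and 2 controls, the fit leaves 1 residual degree of freedom per gene, from the controls. The edgeR test also draws on the spread of other genes, and values in the knockout library have no replicate error.

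Across the nuclear members the differences from the controls were small, and the sign of their median depended on the control chosen. The median fitted log2 fold change over the 91 tested nuclear members was 0.14, beside 0.05 over all tested genes. Taken against control 5 alone, the median log2 ratio of these members was -0.08. Against control 6 alone it was 0.32. The 2 controls stood further apart than the fit put the knockout library from both. Across the 101 members the median log2 ratio of control 5 over control 6 was 0.36, beside a median fitted log2 fold change of 0.11, and across all genes the ratio of the controls had a median of -0.07. Control 5 was the higher control for 75 of 101 members, and for 46.8% of all genes.

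The knockout library lay above both controls for 38 of 101 members, against 38% of all genes, so that count is at the background. It lay below both for 16 members, or 15.8%, against 31.1% of all genes, and between them for 47, or 46.5%, against 30.9%. In 44 of those 47 the order was control 5, knockout, control 6. Among the 78 nuclear members that averaged at least 5 CPM, 31 lay above both controls, 12 below both and 35 between, where all genes at that level gave 35.8%, 35.3% and 28.9%. A fitted difference of 2-fold or more was found for 6 of 101 members (5.94%), beside 29% of all genes. Among those 78 they were 2, Ndufs3 and Atp5j2, both lower, against 15.7%. The other 4 were Ndufb6, Cox6b2, Atp5d and Sdhaf1, each with at most 54 reads in any library, and they are named here because of their values. Members are not replicates of each other, and these counts describe 3 libraries.

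**Figure D1:**
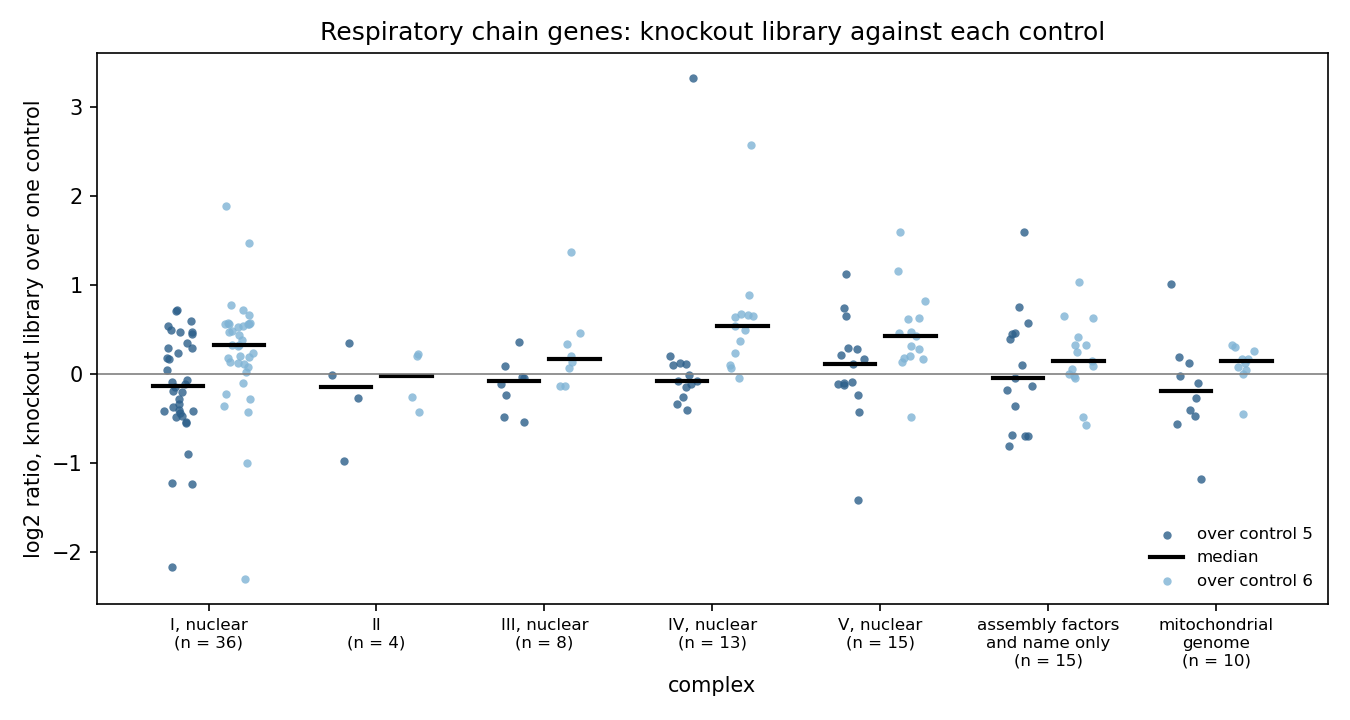
Each point is 1 member, plotted as the log2 ratio of the knockout library over control 5 (dark) or over control 6 (light), grouped by complex on the x axis, with black bars at the medians. The nuclear complex IV members have a median of -0.07 over control 5 and 0.54 over control 6, which shows how far the controls differ for these genes.

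**Figure D2:**
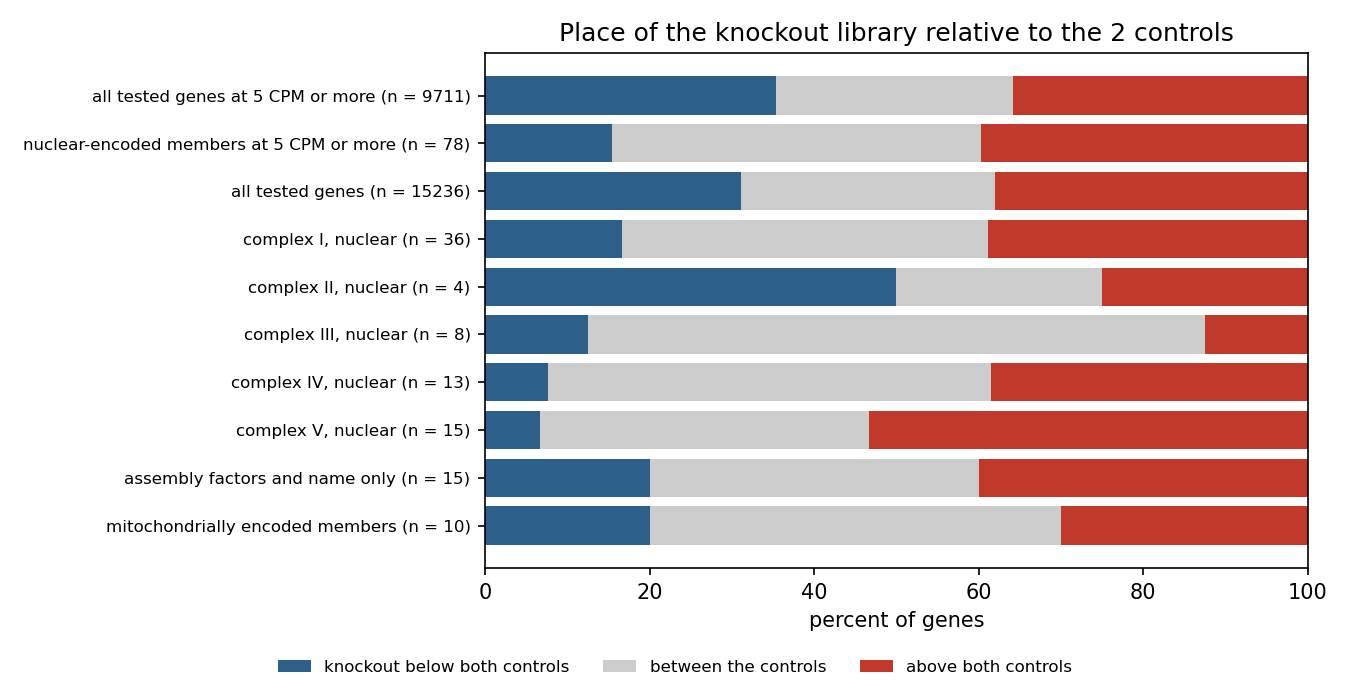
Bars give the percent of genes (x axis) for which the knockout library lay below both controls, between them or above both, for each group of members and for all tested genes. Nuclear members at 5 CPM or more lie below both controls in 15.4% of cases, and all genes at that level in 35.3%.

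Summed over the tested members, complex I of the nuclear genome stood at 1609 CPM in the knockout, 1916 in control 5 and 1490 in control 6. The sums for complex II were 1177, 1350 and 1214 CPM, and for nuclear complex III they were 273, 297 and 255.9. For nuclear complex IV they were 418, 416 and 322 CPM. Complex V was the group with the widest gap above both controls, at 2677 CPM against 2056 and 2105. Most of that gap came from Atp5b, and without it the sums were 1436, 1269 and 1181 CPM. Reads of all nuclear members made up 0.709% of the counted reads in the knockout (Wilson 95% interval 0.705 to 0.713%), 0.639% in control 5 and 0.576% in control 6. Without Atp5b the shares were 0.578%, 0.563% and 0.485%, so that the knockout library and control 5 lay closer together. The intervals cover counting error only, since PCR copies without molecular identifiers are not independent molecules.

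The mitochondrial genome is transcribed apart from the nucleus, as long transcripts of both strands that are then cut into single messages. Its 10 members took 1.04% of counted reads in the knockout, 1.58% in control 5 and 1.09% in control 6. The knockout library and control 6 were close, and control 5 stood above both. In bulk libraries such as these, fewer cells of a type and less RNA per cell cannot be told apart. With mt-Cytb left out, the order turned, and the remaining 9 members took 0.507% in the knockout, 0.477% in control 5 and 0.413% in control 6. The 2 mitochondrial ribosomal RNA genes, which the rule does not include, took 0.0713%, 0.0438% and 0.0538%.

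The gene mt-Cytb (ENSMUSG00000064370, mitochondrial chromosome, 14145 to 15288, plus strand) codes for cytochrome b, the membrane core of complex III. It had 92128 reads in the knockout, 205388 in control 5 and 92913 in control 6, or 5043, 11472 and 6885 CPM. The knockout library was the lowest, but the controls differed from each other by 0.74 on the log2 scale, against 0.45 between the knockout library and control 6. Its fitted log2 fold change was -0.86 ± 0.36 (SE), with an unadjusted p of 0.044 and an adjusted p of 0.820 in edgeR's quasi-likelihood test. It supplied 51.3% of the reads of the mitochondrial members in the knockout, 69.8% in control 5 and 62.0% in control 6.

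The next 2 genes by level did not share that order. For mt-Co1, the catalytic subunit of complex IV, there were 2749 CPM in the knockout, 2952 in control 5 and 2302 in control 6. For mt-Nd1, a membrane subunit of complex I, there were 1242, 1086 and 1201 CPM. Set against mt-Co1 within each library, mt-Cytb gave 1.83 reads per mt-Co1 read in the knockout, 3.89 in control 5 and 2.99 in control 6. The same ratio for mt-Nd1 was 0.452, 0.368 and 0.522. The proportions of the mitochondrial messages thus differed between every pair of these 3 libraries, the controls included.

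For the remaining complex I genes of this genome the fitted log2 fold changes were near 0. They were -0.01 for mt-Nd2, 0.10 for mt-Nd4, -0.19 for mt-Nd5 and -0.22 for mt-Nd6, with standard errors of 0.35 to 0.43. With library totals alone in place of TMM scaling, mt-Nd2 took the other sign (0.12). For mt-Nd2, mt-Nd5 and mt-Nd6 the controls stood further apart than that, control 5 being the higher. In CPM, mt-Nd2 stood at 299, 360 and 243, mt-Nd4 at 276, 253 and 262, mt-Nd5 at 138, 192 and 122, and mt-Nd6 at 63.3, 84.2 and 63.4, in the order knockout, control 5, control 6. The gene mt-Nd6 lies on the minus strand, opposite to the others. The library kit does not mark strand, so its reads cannot be told apart from transcripts of the complementary strand.

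**Figure D3:**
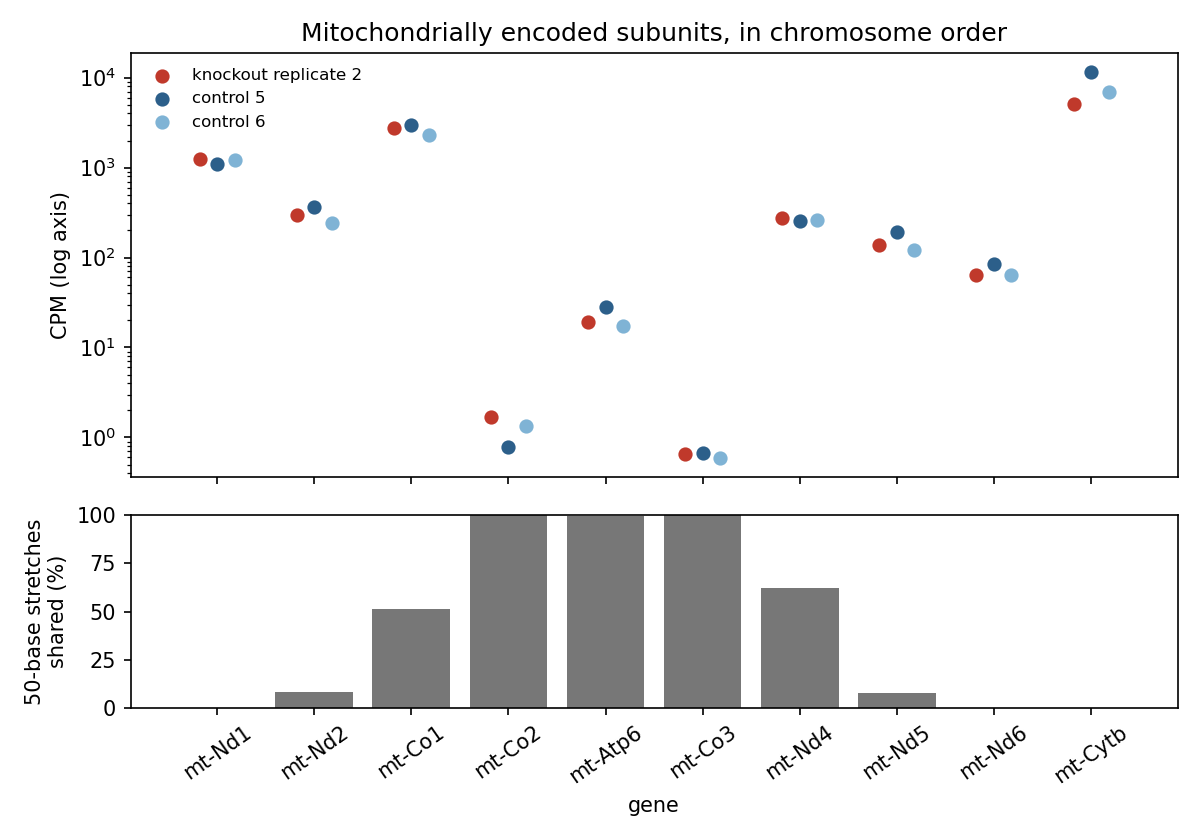
The upper panel gives CPM (log axis) for each of the 10 mitochondrial members in the knockout library and both controls, in the order of the mitochondrial chromosome. The lower panel gives the percent of 50-base stretches of each gene that also occur in transcripts of other genes, and mt-Co2, mt-Atp6 and mt-Co3, which lie far below their neighbours, are those at or near 100%.

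Levels per kilobase of exon differed between mitochondrial genes far more than between libraries. Averaged over the 3 libraries, mt-Cytb stood at 6818 CPM per kb, mt-Co1 at 1727 and mt-Nd1 at 1229, but mt-Atp6 stood at 31.8, mt-Co2 at 1.86 and mt-Co3 at 0.816. These last 3 genes are neighbours on the chromosome, and each has a copy of nearly its whole length in the nucleus, while mt-Co1 and mt-Nd4 have a copy of part of theirs. GENCODE M21 lists pseudogenes on the minus strand of chromosome 1 that repeat this stretch. The copy Gm28661 was identical to mt-Co2 over 681 bases, Gm10925 to mt-Atp6 over 678, Gm28437 to mt-Co3 over 783 and Gm28439 to mt-Nd4 over 876. The sequences below show the first 60 bases of mt-Co2 (MT, 7013 to 7072) and of mt-Co3 (MT, 8607 to 8666), each with its copy (chr1:24615506-24615565 and chr1:24613912-24613971, minus strand), and they are given because a read from such a stretch fits both places.

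mt-Co2: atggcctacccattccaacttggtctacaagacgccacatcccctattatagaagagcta
Gm28661: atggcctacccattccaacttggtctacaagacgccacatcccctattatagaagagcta
mt-Co3: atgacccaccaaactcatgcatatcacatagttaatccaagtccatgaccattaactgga
Gm28437: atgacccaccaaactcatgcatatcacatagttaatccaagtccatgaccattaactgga

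The copy of mt-Co1 on chromosome 1 covers only the last part of that gene. Of the 50-base stretches of mt-Co1, 51.1% also occurred in transcripts of 3 pseudogenes, and 28.7% in Gm29216. Gm29216 matched mt-Co1 over 492 bases with 6 substitutions, T1056A, C1057T, A1059G, A1060G, C1062A and A1066T, with positions counted from 1 at the first base of mt-Co1 and the mitochondrial base given first. All 6 lie in the first 13 bases of the copy. The windows below (MT, 6381 to 6440, and chr1:24616138-24616197, minus strand) show them in capitals, after which the sequences are the same to the end of the window.

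mt-Co1: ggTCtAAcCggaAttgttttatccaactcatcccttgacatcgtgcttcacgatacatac
Gm29216: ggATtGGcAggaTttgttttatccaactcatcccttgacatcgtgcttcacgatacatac

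Read counts of gene and copy were of the same order where the copy spans the gene. For mt-Atp6 there were 353, 511 and 232 reads, and for Gm10925 304, 542 and 242, in the order knockout, control 5, control 6. For mt-Co2 there were 31, 14 and 18 reads beside 10, 10 and 7 for Gm28661. For mt-Co3 there were 12, 12 and 8 beside 16, 6 and 5 for Gm28437. How reads that fit several places were counted is not given in the sources used here, so the level of these 3 genes, and of mt-Co1 and mt-Nd4 in part, is uncertain. The median log2 fold change of the mitochondrial members was 0.02, and over the 5 that share under 20% of their stretches (mt-Nd1, mt-Nd2, mt-Nd5, mt-Nd6 and mt-Cytb) it was -0.19.

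Complex I has a core that is conserved from bacteria and a shell of accessory subunits. Over its 7 nuclear core subunits the median log2 fold change was -0.18, with 2 above both controls (28.6%), 3 below both (42.9%) and 2 between. Over the 29 accessory subunits it was 0.13, with 12 above (41.4%), 3 below (10.3%) and 14 between (48.3%). All tested genes gave 38%, 31.1% and 30.9%, so the share of accessory subunits above both controls was near that of all genes. None passed the test.

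Of all members, Ndufs3 (ENSMUSG00000005510, chr2:90894634-90904827, minus strand) had the widest difference. It codes for a core subunit of the arm that reaches into the matrix. It had 89 reads in the knockout, 401 in control 5 and 331 in control 6, and levels were 4.87 CPM (exact Poisson 95% interval 3.91 to 6.00) against 22.4 and 24.5. The controls lay within 0.13 of each other on the log2 scale, and the knockout library lay 2.17 and 2.30 below them. The fitted log2 fold change was -2.27 ± 0.68 (SE), with an unadjusted p of 0.0103 and an adjusted p of 0.549 in edgeR's quasi-likelihood test.

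This gene too has a near-identical copy. Of its 50-base stretches, 39.7% also occurred in transcripts of other genes, most of them in Gm12251, a processed pseudogene at chr11:58392769-58393560 on the minus strand. The copy matched the coding sequence of Ndufs3 over 792 bases with 11 substitutions, or 98.61% identity. The start of the reading frame is shown for both, bases 181 to 240 of the Ndufs3 transcript and 1 to 60 of the copy, with capitals at the differences G193A and G207T, counted from the first base of the transcript.

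Ndufs3: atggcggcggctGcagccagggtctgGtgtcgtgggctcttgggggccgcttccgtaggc
Gm12251: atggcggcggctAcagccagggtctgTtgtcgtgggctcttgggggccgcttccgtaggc

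Gm12251 itself had 278 reads in the knockout, 257 in control 5 and 148 in control 6. Of the reads given to the pair, the knockout library thus had most on the pseudogene, and both controls had most on Ndufs3. With the reads of the pair added, the levels were 20.1 CPM in the knockout, 36.8 in control 5 and 35.5 in control 6. The knockout library was still below both, at a log2 fold change of -0.85 with an adjusted p of 0.953 in edgeR's quasi-likelihood test, where the alternatives tried ranged from 0.167 to 0.953. Whether reads were shared out differently between the places was not tested.

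A copy also bore on the value of Ndufa12, an accessory subunit with 26.2% of its stretches shared. It had 429 reads in the knockout, 996 in control 5 and 370 in control 6, for a fitted log2 fold change of -0.82. Its processed pseudogene Gm15920 on chromosome 5, which matched it over 402 bases with 2 substitutions (A225G and T504C), had 846, 636 and 247 reads. Added together, the pair stood at 69.8, 91.2 and 45.7 CPM, between the controls, with a log2 fold change of 0.03.

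**Figure D4:**
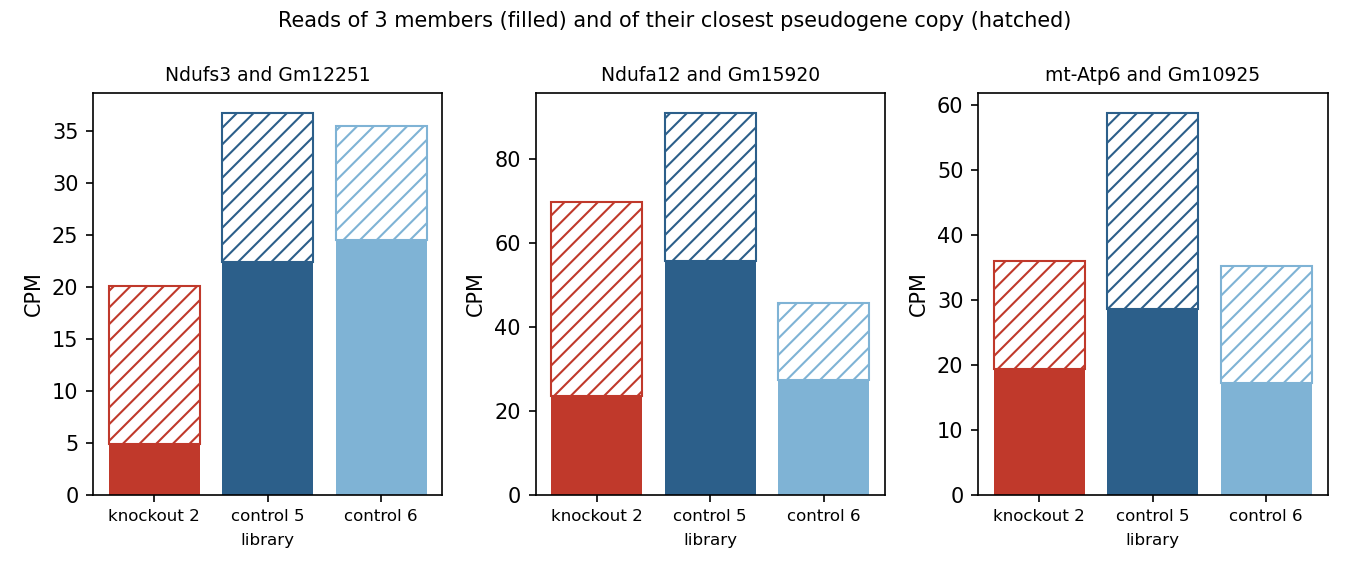
Stacked bars give CPM in each library for Ndufs3, Ndufa12 and mt-Atp6 (filled) and for the closest pseudogene copy of each (hatched). The summed bar of Ndufs3 is 20.1 CPM for the knockout against 36.8 and 35.5 for the controls, and the summed bar of Ndufa12 lies between its controls.

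Other core subunits of complex I were near the controls. Ndufs1, an iron-sulphur subunit, stood at 139 CPM in the knockout library against 151 and 178, below both controls. Ndufv1, the subunit that takes electrons from NADH, stood at 74.0 CPM against 58.0 and 62.7, and Ndufs7, an iron-sulphur subunit, at 28.8 against 25.4 and 17.5, both above both controls. Ndufv2 (42.3 CPM against 58.5 and 37.2) and Ndufs8 (96.1 against 111 and 90.8) lay between the controls. Fitted log2 fold changes of these 5 ran from -0.24 for Ndufs1 to 0.43 for Ndufs7, and that of Ndufs8 was -0.07, or 0.06 with library totals alone.

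Among accessory subunits of complex I, the widest differences at 5 CPM or more were those of Ndufb8 and Ndufa12, both below both controls, and of Ndufa5, above both. Ndufb8, a subunit of the membrane arm (chr19:44548572-44555440, minus strand), had 666 reads in the knockout, 1526 in control 5 and 597 in control 6. In CPM this was 36.5, 85.2 and 44.2, so control 6 was nearer to the knockout library than to control 5, and the fitted log2 fold change was -0.83 ± 0.53 (SE). Ndufa5 had 171, 102 and 73 reads, or 9.36, 5.70 and 5.41 CPM, with a log2 fold change of 0.75 ± 0.87 (SE). The error of Ndufa5 exceeds its difference, and that of Ndufb8 is smaller than its difference but of the same order.

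**Figure D5:**
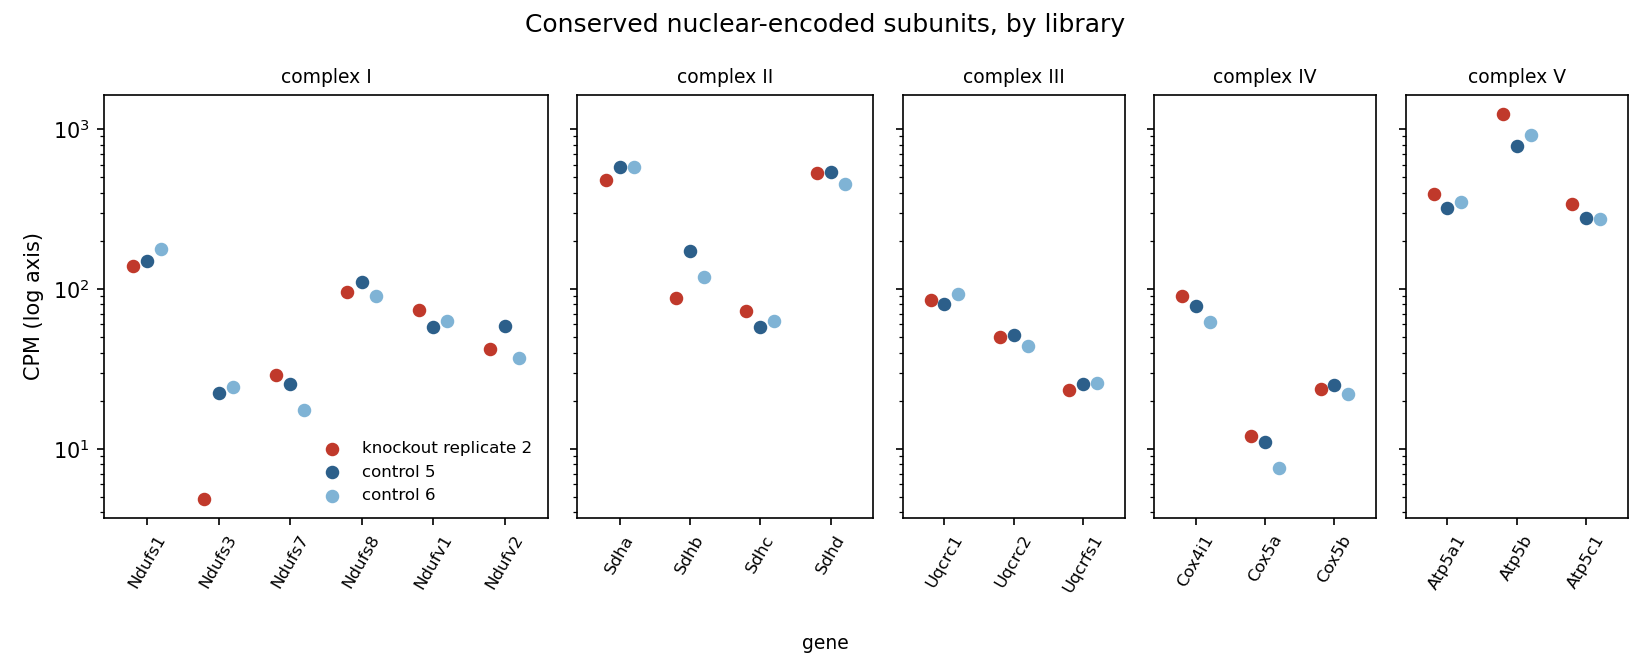
Points give CPM on a log axis for conserved nuclear subunits of complexes I to V in the knockout library (red) and controls 5 and 6 (dark and light blue). Ndufs3, at 4.87 CPM against 22.4 and 24.5, is the gene whose knockout point is set far apart, while Atp5b is above both controls and Sdhb below both.

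Complex II, succinate dehydrogenase, also serves the tricarboxylic acid cycle. Its 4 subunits lay on different sides of the controls. Sdhb, the iron-sulphur subunit (chr4:140961203-140979193, plus strand), had 1603 reads in the knockout, 3099 in control 5 and 1594 in control 6, or 87.8, 173 and 118 CPM. The knockout library was below both, the controls lay 0.55 apart on the log2 scale, and the fitted value was -0.73 ± 0.42 (SE) with an adjusted p of 0.945 in edgeR's quasi-likelihood test. Sdha, the flavin subunit, stood at 482 CPM against 584 and 576, below both controls with a log2 fold change of -0.27. Of the membrane anchors, Sdhc stood at 73.1 CPM against 57.6 and 63.4, above both, and Sdhd at 533 against 536 and 457, between them. Per kilobase of exon, Sdhd had the highest level of all nuclear members, 413 CPM per kb over the 3 libraries, followed by Atp5b at 232.

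Members of complex III mostly lay between the controls. The 8 nuclear members had a median log2 fold change of -0.06, and 6 of the 8 lay between the controls (75%, against 30.9% of all genes). The core proteins Uqcrc1 (85.3 CPM against 80.0 and 93.3) and Uqcrc2 (50.3 against 51.7 and 43.7) were among these. With library totals alone the log2 fold change of Uqcrc1 turned from -0.02 to 0.10. Uqcrfs1, the Rieske iron-sulphur protein, stood at 23.4 CPM against 25.4 and 25.8, just below both. Uqcr10, a small subunit, was above both at 8.05 CPM against 6.26 and 3.04, a log2 fold change of 0.79 ± 0.98 (SE). Cyc1, a complex III subunit that the name rule does not cover and that is not among the 8, stood at 236 CPM against 213 and 195, above both. Reads of Uqcrc2 may include those of Pdzd9, which overlaps 19.7% of its exon length on the opposite strand.

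Complex IV, cytochrome c oxidase, had a median log2 fold change of 0.24 over 13 tested nuclear members, 5 of them above both controls (38.5%, against 38% of all genes), 1 below (7.69%, against 31.1%) and 7 between. Control 5 was the higher control for 12 of the 13. Cox4i1, a regulatory subunit, stood at 90.7 CPM in the knockout library against 78.6 and 62.2 (log2 fold change 0.36 ± 0.40, SE). Cox5a had 218 reads in the knockout against 197 and 103, or a log2 fold change of 0.36. Cox5b stood at 23.6 CPM against 24.9 and 22.1. Of its 50-base stretches 25.9% also occur in Gm11273, a protein-coding gene with 64, 150 and 46 reads. For Cox5a 32.0% are shared, mostly with Gm26631, which had 3, 17 and 2 reads. The fitted value of Cox5b was 0.01, or -0.0018 with no filter on low counts. Cox6b1 was at 12.3 CPM against 11.3 and 6.59, and Cox8a at 58.1 against 54.2 and 41.3. Cox4i1, Cox5a, Cox6b1 and Cox8a exceeded control 5 by less than control 6, and Cox5b lay between the controls.

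Several complex IV subunits exist as tissue forms, and in all 3 libraries the common form prevailed. Cox6a1 had 1884, 1859 and 1180 reads, where Cox6a2, the heart and skeletal muscle form, had 11, 15 and 0. Cox4i1 had 1657, 1407 and 840 reads, where Cox4i2, the form raised by low oxygen in lung, had 6, 0 and 1 and was not tested. Cox6b2, known from testis, had 20, 0 and 14 reads beside 225, 202 and 89 for Cox6b1. A count of 0 allows up to 3 reads, or 0.161 CPM in control 5 and 0.218 in control 6. Cox7a1, another muscle form, was listed only in the table with control 6, with 4 reads in the knockout library and 1 in the control, while Cox7a2 had 761, 809 and 435. In the same order, the 2 of 7 muscle markers in the tables summed to 25.1, 7.04 and 3.19 CPM, and their part in the low counts of the muscle forms was not tested.

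Over the 15 nuclear members of complex V the median log2 fold change was 0.23, with 8 above both controls (53.3%, against 38% of all genes), 1 below (6.67%, against 31.1%) and 6 between. The catalytic head, F1, is made of the alpha, beta, gamma, delta and epsilon subunits. Of these 5, 4 lay above both controls (80%, against 38% of all genes). Atp5d, which is among them, had only 54 reads in the knockout, 23 in control 5 and 17 in control 6. Atp5b, the catalytic beta subunit (ENSMUSG00000025393, chr10:128083273-128090391, plus strand), had 22664 reads in the knockout, 14093 in control 5 and 12472 in control 6. That is 1241 CPM against 787 and 924, so the knockout library lay above both controls, as it did for 38% of all genes. The fitted log2 fold change was 0.54 ± 0.32 (SE), with an adjusted p of 0.956 in edgeR's quasi-likelihood test. Atp5a1, the alpha subunit, stood at 393 CPM against 322 and 348, and Atp5c1, the gamma subunit, at 340 against 278 and 272.

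In the ring and stalk of complex V the values were mixed. The c subunit of the ring is made from 3 genes that code for the same mature protein. Atp5g1 stood at 74.2 CPM against 80.9 and 53.9, Atp5g2 at 52.1 against 31.2 and 37.6, and Atp5g3 at 43.6 against 46.8 and 35.9. Only Atp5g2 of the 3 lay above both controls, at a log2 fold change of 0.60 ± 0.46 (SE). Atp5g2 made up 41.2% of the reads of Atp5g1 and Atp5g2 in the knockout, 27.8% in control 5 and 41.1% in control 6, so the knockout library and control 6 were alike in this and control 5 stood apart. Atp5j2, the f subunit of the membrane part (chr5:145183698-145192062, minus strand), had 180, 473 and 186 reads, or 9.85, 26.4 and 13.8 CPM. It was below both controls at a log2 fold change of -1.03 ± 0.70 (SE), with control 6 nearer to the knockout library than to control 5. Atp5j, a stalk subunit, stood at 8.43 CPM against 7.48 and 5.41, and 12.7% of its exon length overlaps a gene of the opposite strand, Gabpa.

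Over the 15 assembly factors and name-only genes the median log2 fold change was 0.16, with 6 above both controls (40%, against 38% of all genes), 3 below (20%, against 31.1%) and 6 between. Ndufaf6, an assembly factor of complex I, stood at 14.1 CPM against 10.2 and 6.82, and Ndufaf5, which modifies a complex I subunit, at 7.94 against 5.31 and 6.30. Sdhaf2, which attaches flavin to Sdha, stood at 49.9 CPM against 29.7 and 48.2. Sdhaf3, an assembly factor of complex II, was below both at 8.38 against 13.6 and 12.5. Cox7a2l, which takes part in joining complexes III and IV, was the most abundant at 230 CPM against 262 and 217, with a log2 fold change of -0.05, or 0.07 with library totals alone.

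Other genes on which the chain depends were read from lists that the rule does not cover, and none of their genes passed the test. Of 34 tested assembly factors outside the name rule, 10 lay above both controls (29.4%, against 38% of all genes) and 13 below both (38.2%, against 31.1%), with a median log2 fold change of -0.13. Cox17, the copper chaperone for complex IV, was at 10.8 CPM in the knockout library against 34.5 and 28.6, an unadjusted p of 0.0289 and an adjusted p of 0.764 by edgeR. A list of 20 tested genes held electron carriers, enzymes that feed them, enzymes of ubiquinone synthesis and the complex III subunit Cyc1. Of these, 9 lay above (45%) and 5 below (25%), with a median of 0.16. Gpd2, which feeds electrons from glycerol 3-phosphate, was at 33.2 CPM against 10.5 and 22.4, above both controls. Coq8a and Coq2, of ubiquinone synthesis, were below both controls. Coq8a was at 5.09 CPM against 14.8 and 9.26, and Coq2 at 8.70 against 17.1 and 12.1.

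Of 29 genes for expression of the mitochondrial genome, 12 lay above (41.4%, against 38% of all genes) and 7 below (24.1%, against 31.1%), with a median of 0.07. Polrmt, the mitochondrial RNA polymerase, was at 29.6 CPM against 8.10 and 21.8, and Mterf1a, a termination factor, at 2.68 against 12.5 and 9.56. Among 14 regulators of mitochondrial content the median was 0.14, with 4 above both controls (28.6%) and 3 below (21.4%). Myc was at 255 CPM against 121 and 113, an unadjusted p of 0.0129 and an adjusted p of 0.592 by edgeR.

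The 18 genes of the tricarboxylic acid cycle had a median of 0.09, with 8 above (44.4%, against 38% of all genes) and 5 below (27.8%, against 31.1%). Pdhb, of the pyruvate dehydrogenase complex, was at 224 CPM against 394 and 288. Of 29 carriers, import and outer membrane genes, 17 lay above both controls (58.6%, against 38%) and 6 below (20.7%, against 31.1%), with a median of 0.28. This list held both aspartate and glutamate carriers, which lay on opposite sides of the controls. Slc25a12 was at 46.1 CPM against 15.7 and 13.3, and Slc25a13 at 33.7 against 76.0 and 71.7, with adjusted p of 0.576 and 0.797 by edgeR.

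Sequence upstream of the nuclear members was compared by counting fixed words. NRF1 is a factor known for binding near genes of the respiratory chain. Its 10-base word, the capitals in the windows below, reads the same on both strands. It was searched in the 250 bases upstream of each RefSeq start, which can differ from the deposited gene position. The words of Atp5g2 and Atp5k lie wholly or mostly within the deposited spans of these genes. RefSeq promoters (GRCm38.p6) were matched for 75 of the 92 nuclear members, and 5 of these (6.67%) held the word, against 1.84% of 10323 tested genes and 0.877% of 27025 genes. The 30-base windows are shown with the word in capitals, on the strand of the gene. They lie at chr15:102671070-102671099 (minus strand), chr5:108434430-108434459 (minus), chr5:115349101-115349130 (minus), chr17:56717692-56717721 (plus) and chr4:24897960-24897989 (plus).

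Atp5g2: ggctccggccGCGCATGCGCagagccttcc
Atp5k: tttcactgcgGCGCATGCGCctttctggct
Cox6a1: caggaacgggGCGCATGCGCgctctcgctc
Ndufa11: cctgcactgcGCGCATGCGCgcacgccttg
Ndufaf4: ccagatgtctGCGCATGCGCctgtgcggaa

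The 5 genes had fitted log2 fold changes of 0.60 (Atp5g2), 0.27 (Atp5k), 0.11 (Cox6a1), 0.55 (Ndufa11) and 0.16 (Ndufaf4). Of these, Atp5g2 and Ndufa11 lay above both controls and the other 3 between them. A further 3 words, each searched on both strands, were held by few members. The ETS word CCGGAAGT was found in 3 of 75 members (4%) and in 6.57% of tested genes, the YY1 word AAGATGGCG in 1 (1.33%) and 1.39%, and the word TCAAGGTCA of oestrogen-related receptors in 1 (1.33%) and 0.300%. A word is a match of letters, and binding was not measured here.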

How the data were processed

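Libraries were made from 2 ug of total RNA by an unstranded kit, per the labels' protocols. Bowtie2 2.2.3, TopHat2 2.0.12, HTSeq 0.6.0 and the build mm9 are named in the submitters' processing notes. Positions are given as deposited, on GRCm38: 90.0% of 18480 gene positions, and those of 85 of the 102 members, equalled those of GENCODE M21. The authors deposited 2 tables of raw read counts per gene, knockout replicate 2 beside 1 control in each, with a CPM column in which the deposited values are the count over the library total and a count of 0 stands as 0.5 reads.

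Counts of the genes in both tables were fitted with edgeR 4.0.16 in R 4.3.3 (filterByExpr, TMM, quasi-likelihood F test, two-sided, Benjamini-Hochberg adjustment over 15236 genes, threshold 0.05). The script was tested on simulated data drawn with less spread than the fit found in these libraries (common dispersion 0.438). That run does not show which changes could be found here. Printed CPM are TMM-scaled, log2 ratios between libraries use a prior count of 2, and SE is the fold change over the root of its F statistic. Totals of 13774075 to 18608979 reads make 3 reads worth 0.161 to 0.218 CPM. Member roles, lists and tests were chosen with earlier results of these data known. Genes were named by a rule: all mitochondrial members, conserved core subunits, isoform sets, and in each complex up to 4 members averaging at least 5 CPM and outside both controls with the largest change, plus Arid1a and up to 3 genes per list by smallest p. The values of 1 gene that the rule names are not reported here. Shared 50-base stretches were counted on the longest protein-coding GENCODE M21 transcript, and 22 members shared 20% or more. Exons of 13 members overlapped a gene of the opposite strand by 10% or more. Alternatives were other scalings and filters, DESeq2 1.42.0, genes in either table, each control left out, pseudogene reads added and members left out.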

Additional observations from a re-analysis of the deposited data

How the results depend on the processing

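No member passed the test under any scaling, filter, gene set or tool run. Over all genes, 6 were called in the edgeR fit, 0 with DESeq2 size factors, with upper-quartile factors and with no filter on low counts (895, 818 and 948 genes at an unadjusted p under 0.05), 44 with a filter at 5 CPM, 223 with DESeq2's Wald test and 10 over genes in either table. The cause was not tested. Library totals alone moved the median of all genes from 0.05 to 0.17, and those of the nuclear and mitochondrial members to 0.26 and 0.15. Left without control 5 or control 6, the nuclear median was 0.32 or -0.08, the mitochondrial one 0.15 or -0.19, and the difference in the share of mitochondrial reads -0.0469 or -0.540 percentage points. That difference was -0.294 with all members and 0.0619 with mt-Cytb left out, an alternative chosen after seeing the data, as were those on copies and those without Atp5b or Vim. Over 53 named genes, 473 values from settings with both controls held 6 changes of sign: Cox5b with no filter (-0.0018), Ndufa12 with its copy added (0.0274), and, with library totals alone, Cox7a2l (0.0713), Ndufs8 (0.0554), Uqcrc1 (0.100) and mt-Nd2 (0.115). Without control 5, 6 of the 53 took the other sign, and without control 6, 13 did. The size of such a shift is tied to the gap between the controls, so it does not show how firm the signs are. No call could be tested without a control, since 1 library against 1 leaves no residual degree of freedom. No paired analysis was possible because the groups share no replicate number. With 1 knockout library, depth limits counting error only.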
